A study of Caenorhabditis elegans with 3 samples.

Results

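Larvae of Caenorhabditis elegans exposed to heat shock were compared with larvae exposed to bio-electrospray, transcript by transcript, as the log2 level on the heat shock array minus the log2 level on the bio-electrospray array. A probe set, the group of array probes that reads 1 transcript, was compared where its level exceeded the median of its array in either treatment. This kept 11980 of 22625 probe sets, and 9024 of the 17118 genes with a probe set of their own. The series holds 3 Affymetrix arrays of whole animals of the wild-type strain N2 (Bristol), and the labels put all of them at the first larval stage (L1). Heat-shocked larvae, the positive control of the study, spent 24 h at 30 °C. Bio-electrosprayed larvae were kept like the controls and then passed through a steel needle under an applied voltage, a jet technique for placing living cells or small organisms. Control larvae received neither treatment, and their array enters no difference here; its level is printed beside the others. All larvae came from bleach-synchronised cultures of parents kept at 20 °C on agar plates with Escherichia coli OP50 as food, and 200 ng of total RNA was labelled per array. How many animals were pooled, the age of each group at collection and the culture of the larvae during the 24 h are not given in the sources used here.

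There was 1 array for each treatment, so no test was possible, and every difference below compares 2 arrays and not 2 conditions with a known spread. The number of arrays limits the precision. "Higher" and "lower" describe the heat shock array relative to the bio-electrospray array.

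Heat unfolds proteins, and the transcription factor HSF-1 answers by switching on chaperone genes, above all the small heat shock proteins of the hsp-16 family and the inducible HSP70 proteins. A separate programme of the worm, the intracellular pathogen response, involves the pals genes and cullin-type ubiquitin ligase parts, and is known to be set off by microsporidia, by the Orsay virus and by prolonged heat. Worm larvae also build a new collagen cuticle at each moult, and the heterochronic genes set which larval stage each cell expresses.

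Of the probe sets compared, 1027 (8.57%) were higher by 2-fold or more and 870 (7.26%) were lower by as much, together 15.8%. With each gene represented by its brightest probe set that reads it alone, 794 genes (8.8%) were higher and 698 (7.73%) lower, together 16.5%. Of the 9024 genes 7984 exceeded both array medians, 513 the heat shock median only and 527 the bio-electrospray median only. The last 2 groups had to differ in level to pass. Among the 794 higher genes 224 (28.2%) had a bio-electrospray level at or below that array's median. Among the 698 lower genes 163 (23.4%) had a heat shock level at or below that array's median. The median difference over all 9024 genes was 0, and the middle 95% of probe set differences ran from −1.91 to 1.74. A difference of 4-fold or more was met by 154 genes on the higher side and 203 on the lower, and one of 16-fold or more by 17 and 19 genes. At the edge of the 2-fold count stood metr-1 (1.0001) and sup-1 (0.998) on the higher side and clik-2 (−1.0001) and cyn-6 (−0.9997) on the lower, so membership near the edge turns on very small amounts.

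Several technical values moved with the heat shock array. All 18 hybridization spike-in probe sets, which read bacterial control RNA put in by the assay, were lower on it, with a median of −0.37 (−0.73 to −0.05). Against control their median was −0.53 on heat shock and −0.19 on bio-electrospray (−0.48 to 0.01), so the bio-electrospray array was also offset from control. If the arrays are centred on these spike-ins in place of the authors' normalization, the median of all probe sets moves to 0.37 and the share of higher calls goes to 78.5%, against 54.1% as deposited. Every difference is then higher by 0.37, so a gene group whose median below lies between −0.37 and 0 changes its sign under that centring. Relative to their 3′ probe sets, the 5′ probe sets of 5 of 5 worm control transcripts were also higher on the heat shock array, from 0.11 for actin to 0.79 for catalase. The part of these offsets in the results was not tested. Of 240 genes with a 2-fold first probe set and a second one above the filter, the second differed in the same direction in 234 and was itself 2-fold apart that way in 148; probe sets of a gene share the array and the RNA.

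**Figure D1:**
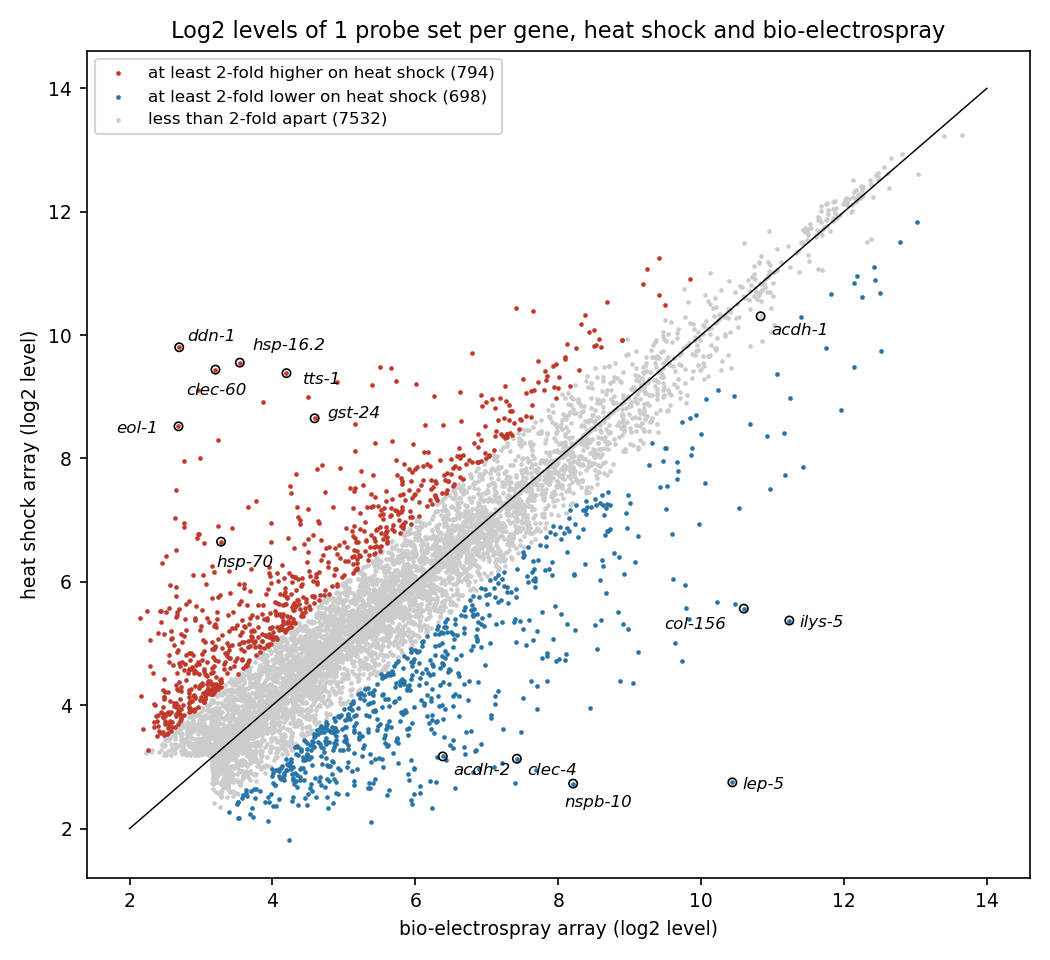
Log2 level of 1 probe set per gene on the heat shock array (vertical axis) against the bio-electrospray array (horizontal axis) for the 9024 genes compared; the line marks equal levels, and red and blue points are the 794 genes at least 2-fold higher and the 698 at least 2-fold lower on heat shock. The genes furthest above the line, such as ddn-1 and hsp-16.2, lay near the bottom of the bio-electrospray axis, and lep-5 lay near the bottom of the heat shock axis.

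The control array fell beside the bio-electrospray array for most of these genes. Among the 794 higher genes the control level was within 2-fold of bio-electrospray alone in 703 (88.5%), within 2-fold of both arrays in 90, and within 2-fold of heat shock alone in 0. Among the 698 lower genes the same counts were 636 (91.1%), 54 and 7. For these genes the heat shock minus bio-electrospray value is therefore close to the heat shock minus control value, and both rest on the same heat shock array. The genes in which the bio-electrospray array stood apart are given further below.

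The hsp-16 genes were far higher on heat shock than on bio-electrospray. The small heat shock protein gene hsp-16.2, a standard reporter of heat stress, had a level of 9.55 on heat shock, 3.54 on bio-electrospray and 3.03 on control, a difference of 6.01 (64.5-fold) between the 2 treatments. Its relative hsp-16.41 had levels of 9.11 on heat shock, 2.95 on bio-electrospray and 2.91 on control, a difference of 6.16 (71.4-fold). In both genes only the heat shock array lay far above the array median, which was 3.19 on heat shock, 3.16 on bio-electrospray and 3.15 on control. Levels of bio-electrosprayed larvae near or below that median depend on the background model, so these folds do too.

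Probe sets that read a pair of near-identical hsp-16 genes gave smaller differences from a brighter starting level. The probe set shared by hsp-16.49 and hsp-16.48 stood at 9.79 on heat shock, 6.82 on bio-electrospray and 6.71 on control, a difference of 2.97. The one shared by hsp-16.11 and hsp-16.1 stood at 8.37 on heat shock, 5.15 on bio-electrospray and 4.93 on control, a difference of 3.21. The inducible HSP70 gene hsp-70 had a level of 6.65 on heat shock, 3.28 on bio-electrospray and 2.95 on control, a difference of 3.37. The HSP70-type genes F44E5.5 and F44E5.4 share a pair of probe sets, which were higher by 2.35 and 2.69.

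The other small heat shock genes ranged widely. All 10 measured members passed the filter. Of these 5 were 2-fold higher or more and 0 lower, and the median was 0.92, or 0.58 for members brighter than both array medians. Beyond the hsp-16 genes, hsp-43 differed by 1.66, at 6.17 on heat shock and 4.51 on bio-electrospray, hsp-17 by 1.31, at 8.18 on heat shock and 6.88 on bio-electrospray, and hsp-12.3 by 1.25, at 4.0 on heat shock and 2.75 on bio-electrospray. The remaining members were less than 2-fold apart: hsp-25 at 0.58, hsp-12.6 at 0.29, sip-1 at 0.03, hsp-12.1 at 0 and hsp-12.2 at −0.41. The hsp-12 genes, 3 of which stayed under 2-fold, are known for weak or absent heat induction.

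General chaperones were close on both arrays. Of 17 HSP70, HSP90 and co-chaperone genes above the filter, 1 (hsp-70) was 2-fold higher and 0 lower, with a median of 0.04. The cytosolic HSP90 gene hsp-90 stood at 10.80 on heat shock, 10.55 on bio-electrospray and 10.62 on control, and the constitutive HSP70 gene hsp-1 at 11.10 on heat shock, 11.24 on bio-electrospray and 11.30 on control. The gene of the heat shock factor itself, hsf-1, differed by 0.52, and the myosin chaperone gene unc-45 by −0.83. The 13 chaperonin and prefoldin genes, which fold actin and tubulin, held 0 genes 2-fold apart around a median of −0.17 (0.20 with spike-in centring).

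In the endoplasmic reticulum, the unfolded protein response genes split. The transcription factor gene xbp-1 stood at 9.06 on heat shock, 7.55 on bio-electrospray and 7.25 on control, a difference of 1.5, and the sensor gene atf-6 differed by 1.37. The choline kinase gene ckb-2 went the other way at −1.62, and the ER chaperone gene hsp-4 stood at −0.87. Of the 22 genes of this list 2 were higher and 1 lower, with a median of −0.04. Among 9 mitochondrial unfolded protein response genes only the import channel gene timm-23 was 2-fold apart (1.13), and the mitochondrial chaperone gene hsp-6 stood at −0.39.

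**Figure D2:**
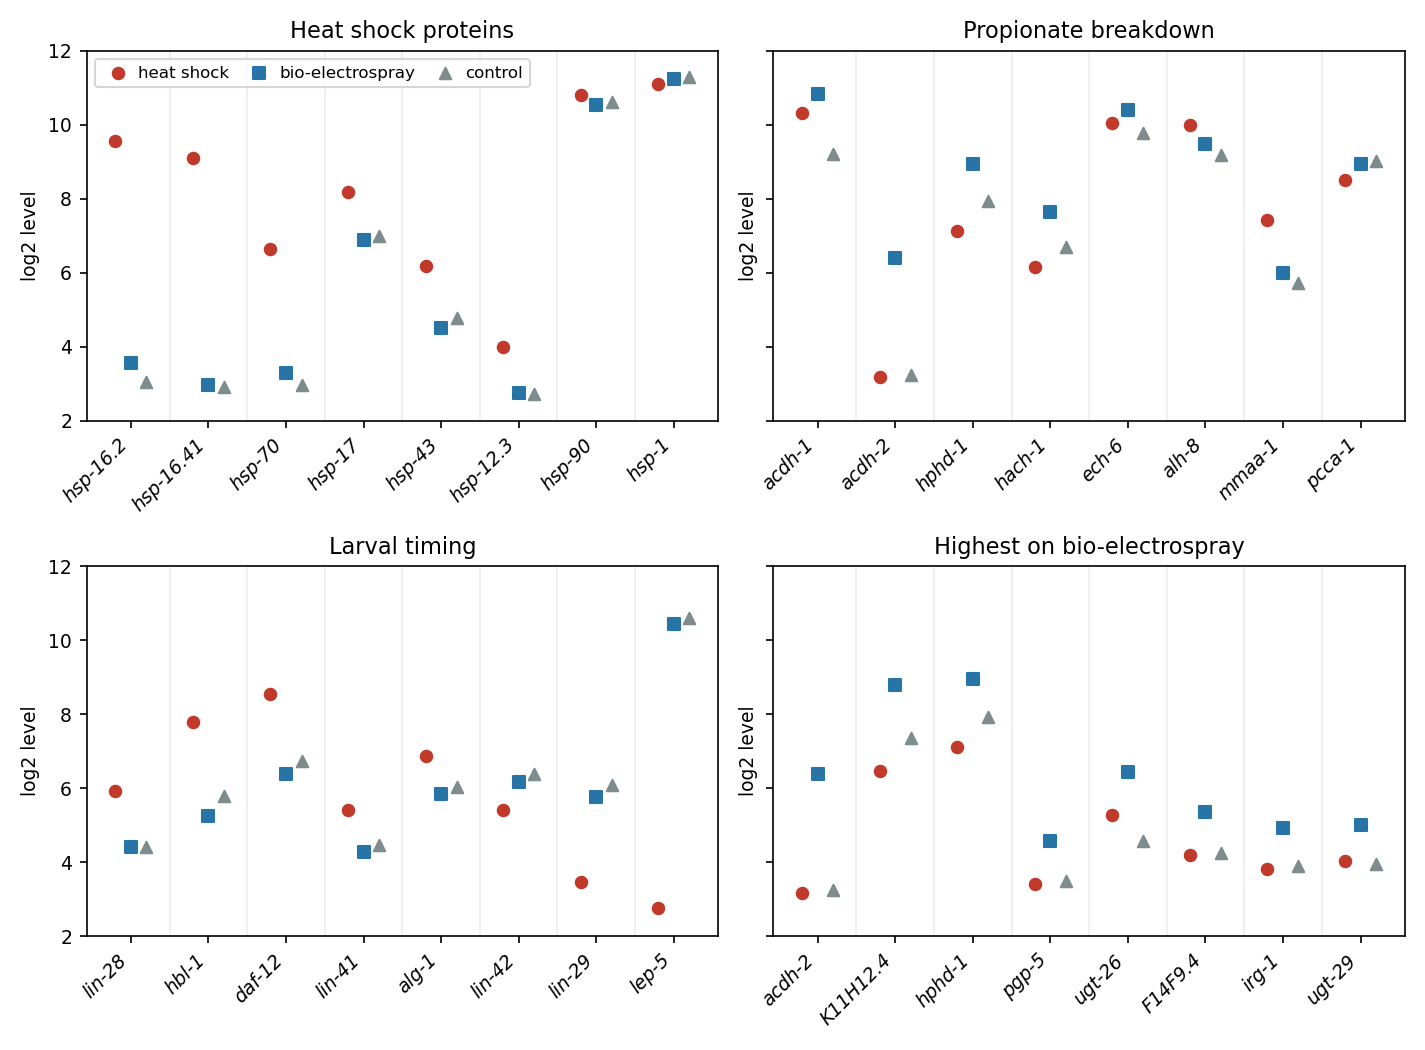
Log2 level on the heat shock (circles), bio-electrospray (squares) and control (triangles) arrays for heat shock proteins, propionate genes, larval timing genes and the 8 genes furthest above both other arrays on bio-electrospray. In the heat shock panel hsp-16.2 stood at 9.55 on heat shock, 3.54 on bio-electrospray and 3.03 on control, and in the last panel only the square of each gene lay above the rest.

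Genes of the intracellular pathogen response were higher on heat shock as a set. Of 23 pals genes 18 passed the filter, with 14 higher by 2-fold or more, 0 lower and a median of 2.41. The gene pals-6 stood at 8.00 on heat shock, 2.98 on bio-electrospray and 2.72 on control, a difference of 5.02. The next widest were pals-33 (3.39), pals-29 (3.79) and pals-27 (3.83), each with a bio-electrospray level under 3. Of the regulators of this response, pals-22 differed by 1.31 and pals-25 by 0.70. Most pals genes passed the filter through the heat shock array alone and so had to differ, and the members brighter than both array medians had a median of 0.70.

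Outside the pals family 13 further genes of this response passed, with 12 at least 2-fold higher, 0 lower and a median of 2.0 (1.48 above both medians). The gene eol-1, a relative of the mammalian decapping nuclease DXO, stood at 8.52 on heat shock, 2.69 on bio-electrospray and 2.64 on control, a difference of 5.84. The ribonuclease H gene rnh-1.3 differed by 4.83, and the neighbouring genes F26F2.3, F26F2.1 and F26F2.4 by 3.12, 2.63 and 2.52. The cullin gene cul-6 stood at 6.07 on heat shock, 4.31 on bio-electrospray and 4.19 on control, and the SKP1-related adaptor genes skr-4 and skr-5, partners of cul-6 in a ubiquitin ligase, both differed by 2.0. In each of them the heat shock array alone stood high, and bio-electrospray lay beside control.

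Ubiquitin ligase genes taken as families varied more. Of 17 skr and cul genes above the filter 6 were at least 2-fold higher and 1 lower (skr-2, −1.42), with a median of 0.37, or −0.02 over all 25 without the filter. This list overlaps the pathogen response genes above, so skr-4, skr-5 and cul-6 are counted in both. Only 64 of 310 F-box genes, which encode substrate adaptors of such ligases, passed the filter, with 18 higher, 1 lower and a median of 0.51. Their largest differences were those of fbxa-158 (5.91 on heat shock, 2.65 on bio-electrospray; 3.26), fbxa-165 (3.0) and fbxa-24 (2.51). Over all 310 without the filter the F-box median was −0.04, so the positive value describes those bright enough to pass. MATH and BATH adaptor genes had 7 higher and 1 lower of 31, with a median of 0.22, or −0.05 over all 85 without the filter. Proteasome subunit genes, at the end of the same degradation route, had 0 higher and 1 lower of 33 (rpn-6.2, −1.35), with a median of −0.26, or 0.11 with spike-in centring.

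The gene with the widest positive difference was ddn-1, with a level of 9.80 on heat shock, 2.70 on bio-electrospray and 2.67 on control (7.11, or 138-fold). The long non-coding RNA tts-1, which is abundant in dauer larvae and in long-lived daf-2 mutants, stood at 9.38 on heat shock, 4.2 on bio-electrospray and 4.80 on control (5.19). The Argonaute gene vsra-1, a small RNA binding factor, stood at 9.0 on heat shock, 4.50 on bio-electrospray and 4.30 on control (4.50). For ddn-1 the low level was below the array median, while for tts-1 and vsra-1 all 3 arrays were above it. The uncharacterised genes F15D4.5 (5.06), C53A5.9 (4.41), Y53F4B.45 (4.33) and R11A5.3 (4.19) completed the 15 highest, together with the hsp-16, pals, lectin and nuclease genes described here.

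Defence genes of the gut and skin went both ways. Of 220 C-type lectin genes, secreted sugar-binding proteins many of which respond to infection, 46 passed the filter, with 9 higher, 8 lower and a median of 0. The lectin gene clec-60, known for induction by Gram-positive bacteria, stood at 9.44 on heat shock, 3.20 on bio-electrospray and 3.11 on control (6.24), and clec-17 and clec-174 differed by 5.19 and 5.04. At the other end clec-4 stood at 3.13 on heat shock, 7.42 on bio-electrospray and 6.46 on control (−4.29) and clec-66 differed by −3.05. The invertebrate-type lysozyme gene ilys-5 stood at 5.37 on heat shock, 11.23 on bio-electrospray and 11.05 on control (−5.86), through a probe set that may also read near-identical copies. The saposin-like genes, which encode membrane-attacking peptides, included both spp-18 (9.47 on heat shock, 5.66 on bio-electrospray; 3.81) and spp-4 (−2.59).

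Of 19 epidermal antimicrobial peptide genes above the filter 3 were higher and 4 lower, with a median of −0.21. Among the widest, the caenacin genes cnc-3 and cnc-4 differed by 2.35 and 2.34, whereas nlp-25 and nlp-26 differed by −2.97 and −1.97. The infection response gene irg-5 stood at 7.56 on heat shock, 4.24 on bio-electrospray and 4.51 on control (3.31), whereas irg-3 and dod-17 both differed by −1.98. A probe set shared by dod-21 and cld-1 stood at 9.35 on heat shock, 3.36 on bio-electrospray and 5.05 on control. Across the 15 dod and irg genes above the filter 3 were higher and 4 lower, a share on either side above the 8.8% and 7.73% of all genes but with a median of −0.08.

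Many cuticle genes were lower on heat shock. Of 128 collagen genes of the col family 89 passed the filter, of which 41 were lower by 2-fold or more and 4 higher (median −0.88; −0.52 with spike-in centring and −0.33 over all 128 without the filter). The widest were col-156, at 5.57 on heat shock, 10.60 on bio-electrospray and 10.65 on control (−5.03), and col-180, at 5.64 on heat shock, 10.48 on bio-electrospray and 10.50 on control (−4.83). The 4 higher genes were col-149 (10.40 on heat shock, 7.65 on bio-electrospray; 2.75), col-98 (1.94), col-103 (1.87) and col-176 (1.57), all bright on both arrays. The adult-stage collagen gene col-19 stood near the array median on all 3 arrays, at 3.15 on heat shock, 3.26 on bio-electrospray and 3.25 on control.

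Body-shape collagens, whose mutants are dumpy, rolling or blistered, showed the same mixture. Of 17 above the filter 9 were lower and 2 higher, with a median of −1.1 (−0.74 with spike-in centring). The gene dpy-5 stood at 8.98 on heat shock, 11.24 on bio-electrospray and 11.34 on control (−2.27), and dpy-4 and rol-6 differed by −1.82 and −1.72. In contrast dpy-14 stood at 5.28 on heat shock, 3.0 on bio-electrospray and 2.94 on control (2.28) and dpy-17 at 6.14 on heat shock, 3.96 on bio-electrospray and 3.69 on control (2.19). The cuticlin gene cut-2, part of the insoluble cuticle, differed by −3.44.

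Genes that release the old cuticle or pattern the skin also had more lower than higher members. Of 15 astacin metalloprotease genes above the filter, out of 33 measured, 8 were lower and 0 higher (median −1.27; −0.90 with spike-in centring and −0.11 over all 33 without the filter), among them nas-1 (−2.11), nas-38 (−2.05) and the moulting protease gene nas-36 (−1.27). Of 22 moulting genes 7 were lower and 0 higher, with mlt-10 at 3.39 on heat shock, 5.58 on bio-electrospray and 5.63 on control (−2.18) and mlt-8 at −2.09, but the median of −0.35 became 0.02 with spike-in centring. Of 26 hedgehog-related genes, secreted proteins of the epidermis, 9 were lower and 1 higher (grd-3, 1.87; median −0.61, or −0.06 over all 53 without the filter), with grd-14 at 5.67 on heat shock, 10.23 on bio-electrospray and 10.23 on control (−4.56). Their patched-related receptor family had 4 lower and 0 higher of 19, with ptr-2 at −1.63 and a median of −0.38, or −0.07 without the filter. Among 47 abu and pqn genes, glutamine- and asparagine-rich proteins many of which line the pharynx, 19 were lower and 4 higher. The widest were abu-15 (−5.01), pqn-54 (−4.73), abu-6 (−4.63) and abu-11 (−4.49), yet the median was −0.09. That median was −1.02 with the filter at the 75th percentile and −0.35 without probe sets shared between transcripts. It was 0 above both medians and 0.27 with spike-in centring. The list held a lower tail, and whether its members shifted in common depended on these choices.

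**Figure D3:**
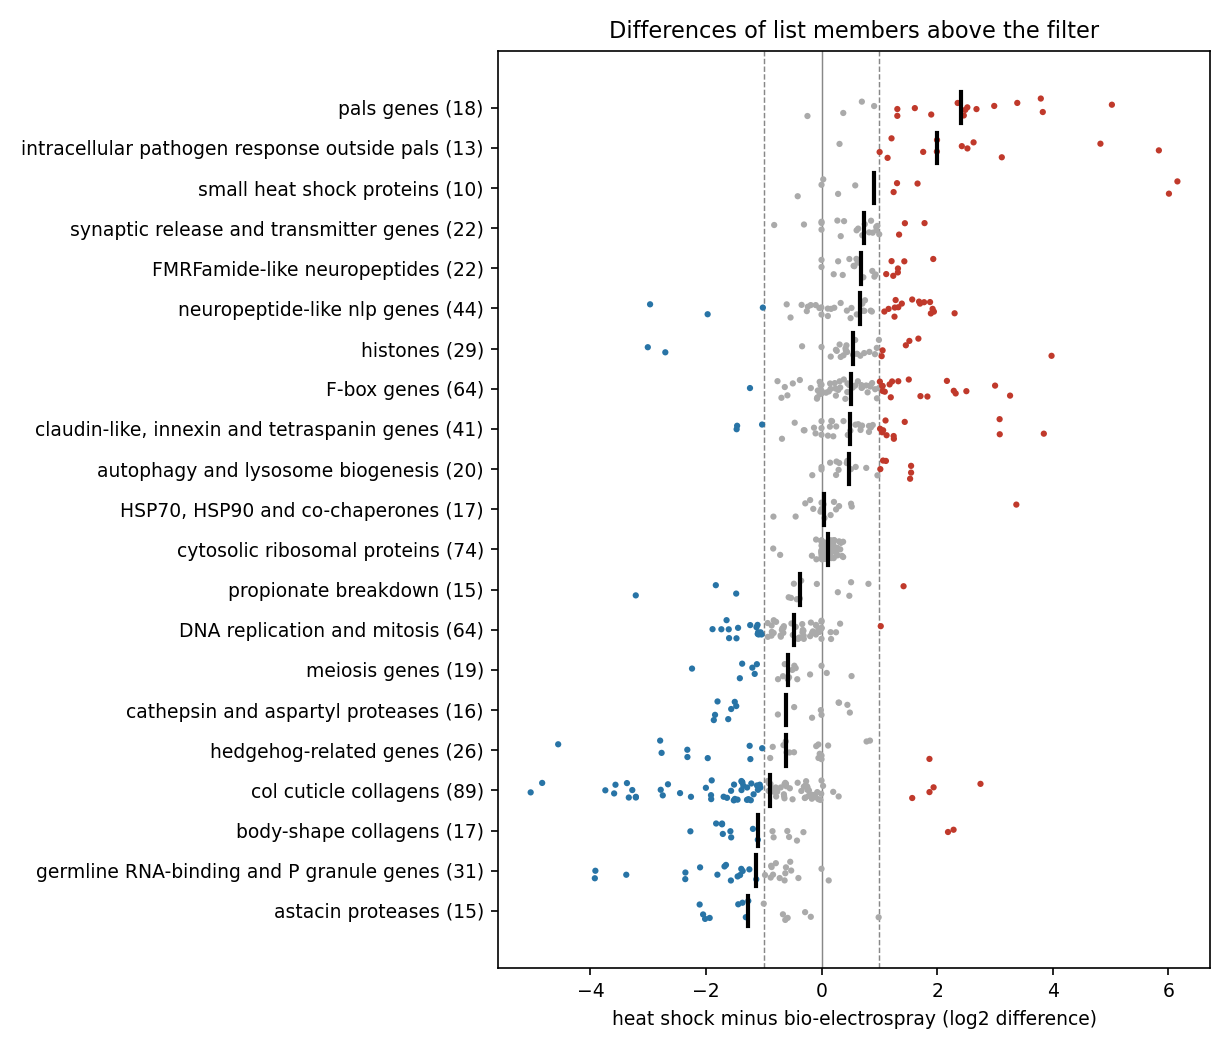
Heat shock minus bio-electrospray log2 difference of each member above the filter (points; number of members in brackets) for the gene groups named at the left, with a black bar at each group's median and dashed lines at 2-fold; red is higher and blue is lower on heat shock. The pals genes had a median of 2.41, cytosolic ribosomal proteins 0.11, col collagens −0.88 and astacin proteases −1.27.

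The genes that time larval development differed in opposite directions. The long non-coding RNA lep-5, which acts against LIN-28 late in larval life, had the widest difference of all 9024 genes as deposited: 2.75 on heat shock, 10.44 on bio-electrospray and 10.59 on control (−7.69, or 206-fold). Its heat shock level lay below the array median, so the size of this fold depends on the background model; with an offset of 16 it was −5.95. The transcription factor gene lin-29, the last step of the pathway, stood at 3.47 on heat shock, 5.75 on bio-electrospray and 6.09 on control (−2.28). On the higher side, hbl-1, the Hunchback-like factor of early larvae, stood at 7.79 on heat shock, 5.24 on bio-electrospray and 5.79 on control (2.55), and the RNA-binding protein gene lin-28, a factor of early fates, at 5.93 on heat shock, 4.39 on bio-electrospray and 4.41 on control (1.54). The nuclear receptor gene daf-12, which also decides dauer entry, stood at 8.54 on heat shock, 6.38 on bio-electrospray and 6.73 on control (2.16). Also higher were lin-41 (1.12), a translational repressor, and alg-1 (1.04), the Argonaute of the microRNA pathway, while lin-42, a PERIOD relative, stood at −0.77. Of 13 timing genes above the filter 5 were higher and 2 lower, and lin-14 lay below the median on both arrays. The labels give L1 for every sample, and whether the groups were of 1 age when collected was not tested.

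Germline genes were lower on heat shock. Of 31 germline RNA-binding and P granule genes above the filter 16 were lower by 2-fold or more and 0 higher (median −1.13, or −0.76 with spike-in centring). The gene daz-1, an RNA-binding factor of oogenesis, stood at 3.56 on heat shock, 7.48 on bio-electrospray and 7.50 on control (−3.91). The translational repressors cpb-1, cpb-3 and gld-1 differed by −3.92, −3.38 and −2.35. Meiotic chromosome axis and synaptonemal complex genes followed, with 6 lower and 0 higher of 19, among them htp-3 (−2.24) and syp-2 (−1.16). In whole animals fewer cells of a type and less RNA per cell cannot be told apart, here and for the neuronal genes below.

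Argonaute genes, which load small RNAs, did not move as 1 group. Of 26 listed small RNA genes 7 were lower and 3 higher around a median of 0; vsra-1, described above (4.50), is not in that list. The germline Argonaute gene wago-1 stood at 2.47 on heat shock, 5.94 on bio-electrospray and 5.79 on control (−3.47), and csr-1 and wago-2 differed by −2.06 and −2.68. The Piwi gene prg-1 went the other way, at 7.88 on heat shock, 6.55 on bio-electrospray and 6.57 on control (1.33). Major sperm protein and sperm genes had 15 lower and 0 higher of the 28 that passed, with a median of −1.07, which became −0.04 over the few members without shared probe sets and −0.05 over all 69 without the filter. All 4 measured sperm markers (gsp-3, gsp-4, spe-11 and ssp-16) were below the median on both arrays.

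DNA replication and mitosis genes had 15 of 64 lower and 1 higher, with a median of −0.47 (−0.11 with spike-in centring). The B-type cyclin genes cyb-1 (3.74 on heat shock, 5.63 on bio-electrospray, 5.69 on control; −1.89) and cyb-3 (−1.47) were among the lower ones. So were the replicative helicase gene mcm-7 (−1.64) and the mitotic kinase gene plk-1 (−1.61). The single higher gene was cki-1, which encodes an inhibitor of the cell cycle, at 7.08 on heat shock, 6.05 on bio-electrospray and 6.02 on control (1.02).

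Neuropeptide and synaptic genes had positive medians, and other neuronal groups had smaller ones. All 8 neuronal markers were above 0, from 0.33 for unc-64 to 1.44 for egl-3, and the log2 of their summed linear levels was 10.53 on heat shock, 9.52 on bio-electrospray and 9.63 on control. The same sum was 8.92 on heat shock, 9.80 on bio-electrospray and 9.89 on control for 6 germline markers. It was 11.52 on heat shock, 11.93 on bio-electrospray and 11.83 on control for 8 intestinal markers, and 9.30 on heat shock, 8.72 on bio-electrospray and 8.74 on control for 7 hypodermal markers. For 6 muscle markers it was 12.42 on heat shock, 12.55 on bio-electrospray and 12.55 on control. Thus neuronal and hypodermal sums were higher and germline and intestinal sums lower on heat shock, and the muscle sum differed by −0.13. Linear sums weigh bright markers most, and the hypodermal and intestinal markers were mixed. The hypodermal set had 5 markers above 0 and 2 below, with 1 at least 2-fold higher and 1 lower. The intestinal set had 2 above 0 and 5 below, with 2 at least 2-fold lower. Its bright marker mtl-2 stood at 9.83 on heat shock and 10.69 on bio-electrospray, whereas elt-2 (−0.19) and ifb-2 (0.03) differed little. All 6 germline markers were below 0. The markers show RNA of each of these tissues in whole larvae on every array, and the part of tissue make-up in the gene differences was not tested.

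Of 22 FMRFamide-like neuropeptide genes 7 were at least 2-fold higher and 0 lower (median 0.69), led by flp-15 at 8.11 on heat shock, 6.18 on bio-electrospray and 6.22 on control (1.93). Of 44 neuropeptide-like nlp genes 16 were higher and 3 lower (median 0.66), with nlp-7 at 6.96 on heat shock, 4.66 on bio-electrospray and 4.36 on control (2.3). The lowest of them was nlp-25 (−2.97), also counted above among the epidermal antimicrobial peptide genes. The enzymes that cut and trim neuropeptides matched their substrates in direction: egl-21, a carboxypeptidase, differed by 1.78 and egl-3, a proprotein convertase, by 1.44. Of 22 synaptic and transmitter genes 3 were higher and 0 lower (median 0.73), including unc-25 (1.34), the enzyme that makes GABA. Over all members without the filter the medians were 0.62 for FMRFamide-like, 0.29 for nlp and 0.39 for synaptic genes. The other medians were smaller: potassium channels 0.25 (2 higher and 0 lower of 27), cilium and touch receptor genes 0.28 (1 higher and 2 lower of 19) and ligand-gated channels 0.04 (2 higher and 2 lower of 25). In that order 7.41%, 5.26% and 8% of them were higher, below the 8.8% of all genes. Insulin-like peptide genes had 1 higher and 1 lower of 10, with a median of −0.0048. Of 1210 chemoreceptor genes only 8 passed the filter, with 2 higher, 1 lower and a median of 0.06, and with sri-70 at 5.52 on heat shock, 2.24 on bio-electrospray and 2.23 on control (3.28).

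Transcription factor and chromatin genes had smaller medians. Homeobox genes had 5 higher and 1 lower of 40 (median 0.38, or 0 without the filter), with the engrailed gene ceh-16 at 1.65 and the Hox gene mab-5 at 1.64. Nuclear hormone receptor genes had 7 higher and 0 lower of 118 (median 0.15, or −0.01 without the filter), led by nhr-147 (2.44) and nhr-3 (2.37), a share of 5.93% higher against 8.8% of all genes. Histone genes had 6 higher and 2 lower of 29 (median 0.55). The linker histones, which clamp DNA between nucleosomes, lay at both ends, with hil-7 at 9.49 on heat shock, 5.51 on bio-electrospray and 5.66 on control (3.98) and hil-5 at 4.84 on heat shock, 7.85 on bio-electrospray and 7.64 on control (−3.01).

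Propionate breakdown was one place where the bio-electrospray array stood apart. Worms burn propionate by a vitamin B12-dependent route through methylmalonyl-CoA, or by a shunt that starts with the acyl-CoA dehydrogenase ACDH-1. The close relative acdh-2 stood at 3.17 on heat shock, 6.38 on bio-electrospray and 3.24 on control, a difference of −3.21. The shunt dehydrogenase gene hphd-1 stood at 7.12 on heat shock, 8.94 on bio-electrospray and 7.93 on control (−1.83), and the hydrolase gene hach-1 at 6.16 on heat shock, 7.63 on bio-electrospray and 6.70 on control (−1.48). For these 3 genes the bio-electrospray level was the highest of the arrays, and the heat shock level was the lowest, by 0.07 for acdh-2 and by more for the others.

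The rest of the shunt did not share that order. The gene acdh-1 itself stood at 10.31 on heat shock, 10.83 on bio-electrospray and 9.20 on control, so both treated arrays were above control and differed from each other by −0.53. The next enzymes ech-6 (10.05 on heat shock, 10.40 on bio-electrospray and 9.77 on control) and alh-8 (9.98 on heat shock, 9.47 on bio-electrospray and 9.17 on control) were likewise highest on 1 or other treated array and lowest on control. Of the B12 route, the chaperone gene mmaa-1 was the only one 2-fold higher on heat shock, at 7.42 on heat shock, 6.00 on bio-electrospray and 5.72 on control (1.42), while pcca-1 (−0.43), pccb-1 (−0.57) and mmcm-1 (−0.37) were less than 2-fold apart. The shunt's regulators nhr-68 (0.48) and nhr-10 (−0.08) were also less than 2-fold apart. Over all 15 propionate genes 1 was higher and 3 lower, with a median of −0.37, or −0.01 with spike-in centring.

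The 8 genes furthest above both other arrays on bio-electrospray, a number set in advance, included acdh-2 and hphd-1. The uncharacterised K11H12.4 stood at 6.46 on heat shock, 8.78 on bio-electrospray and 7.35 on control (−2.31). The UDP-glucuronosyltransferase gene ugt-26, of a family that conjugates foreign compounds, stood at 5.26 on heat shock, 6.43 on bio-electrospray and 4.56 on control (−1.17). The drug efflux pump gene pgp-5 stood at 3.40 on heat shock, 4.56 on bio-electrospray and 3.48 on control (−1.17), and a probe set shared by its neighbours pgp-6 and pgp-7 at 4.24 on heat shock, 5.95 on bio-electrospray and 3.83 on control (−1.72). The infection response gene irg-1 stood at 3.83 on heat shock, 4.92 on bio-electrospray and 3.90 on control (−1.09). With F14F9.4 (−1.16) and ugt-29 (−0.98) these complete the 8 genes, and with an offset of 16 on the linear scale, which shrinks differences of dim genes, only acdh-2, K11H12.4 and hphd-1 of the 8 kept a 2-fold difference.

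In the opposite sense, among genes from probe sets annotated to 1 gene, the bio-electrospray level lay below both other arrays by at most 0.91. That was in dod-24, a gene of the gut immune response, at 7.70 on heat shock, 6.63 on bio-electrospray and 7.54 on control. The probe set shared by dod-21 and cld-1, given above, lay further below both. The lectin gene clec-72 stood at 5.98 on heat shock, 3.98 on bio-electrospray and 4.57 on control, and the innexin gene inx-10 at 4.55 on heat shock, 3.88 on bio-electrospray and 4.50 on control. No gene above the filter with its own probe set was at least 2-fold from control in opposite directions on the 2 treated arrays. The probe set shared by dod-21 and cld-1 was, at 9.35 on heat shock, 3.36 on bio-electrospray and 5.05 on control.

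Lipid, starvation and detoxification genes filled out the difference. Some fatty acid desaturase genes of polyunsaturated fat synthesis were higher. The gene fat-2 stood at 11.07 on heat shock, 9.24 on bio-electrospray and 9.09 on control (1.83). The neighbouring genes fat-4 and fat-3 differed by 1.60 and 1.31. The stearoyl-CoA desaturase gene fat-6 stood at 9.80 on heat shock, 8.25 on bio-electrospray and 8.64 on control (1.55). Those 4 were the only members 2-fold apart of 15 desaturase, elongase and related genes, whose median was 0.16. The lysosomal lipase gene lipl-1, known for induction by fasting, stood at 5.35 on heat shock, 2.45 on bio-electrospray and 2.66 on control (2.90).

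Autophagy genes, which recycle cell contents through the lysosome, had 6 higher and 0 lower of 20 (median 0.48). The cargo receptor gene sqst-1 stood at 9.65 on heat shock, 8.10 on bio-electrospray and 7.60 on control (1.55), and the Atg8 genes lgg-2 and lgg-1 differed by 1.55 and 1.06. Of 19 dauer and DAF-16 target genes 5 were higher and 0 lower, including the metallothionein gene mtl-1 (7.31 on heat shock, 3.77 on bio-electrospray and 3.70 on control; 3.54) and the superoxide dismutase gene sod-3 (1.67). Cathepsin and aspartyl protease genes had 7 lower and 0 higher of 16. Among the lower were cpr-6 (6.82 on heat shock, 8.69 on bio-electrospray and 8.82 on control, a difference of −1.86) and cpr-4 (−1.80). In the whole list 11 were below 0 and 4 above, the highest being the aspartyl protease gene asp-4 (0.49). Over all 23 without the filter their median was −0.07.

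Detoxification families went both ways. Of 23 glutathione S-transferase genes 2 were higher (8.7%) and 6 lower (26.1%), against 8.8% and 7.73% of all genes. The glutathione S-transferase gene gst-24 stood at 8.65 on heat shock, 4.59 on bio-electrospray and 4.85 on control (4.06), while gst-4, a common reporter of oxidative stress, stood at 4.73 on heat shock, 6.21 on bio-electrospray and 6.34 on control (−1.47). The sugar-transferase gene ugt-39 differed by 3.55 and ugt-1 by −2.63, and 2 of 45 such genes were higher (4.44%) and 8 lower (17.8%). Cytochrome P450 genes had 4 higher (13.8%) and 0 lower of 29, led by cyp-37B1 (1.68). Of 25 ABC transporter genes 1 was higher (4%) and 2 lower (8%), the lower share near that of all genes. Among the lower was the efflux pump gene pgp-14, at 4.03 on heat shock, 7.12 on bio-electrospray and 7.21 on control (−3.09). The medians of these families lay between −0.16 and 0.

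Membrane junction genes included some of the wider differences outside the stress lists. Of 41 claudin-like, innexin and tetraspanin genes 11 were higher and 3 lower (median 0.50, or 0.11 without the filter), with the claudin-like gene clc-11 at 6.30 on heat shock, 2.46 on bio-electrospray and 2.44 on control (3.85) and the tetraspanin genes tsp-1 and tsp-2 both at 3.08. The water channel gene aqp-2 stood at 11.24 on heat shock, 9.41 on bio-electrospray and 9.5 on control (1.83).

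Housekeeping genes were close on both arrays. Of 74 cytosolic ribosomal protein genes 0 were 2-fold apart, with differences from −0.84 to 0.37 and a median of 0.11. Respiratory chain genes had 0 higher and 2 lower of 57, with asb-1 at −1.81 and nduf-2.2 at −1.36, and a median of −0.26 that became 0.11 with spike-in centring. Glycolysis and gluconeogenesis genes had 0 of 19 apart (median −0.03). Splicing genes also had 0 of 38 apart (median −0.06).

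The 2-fold genes lay on all 6 nuclear chromosomes, and 2 of 8 mitochondrial genes were higher. Among the nuclear chromosomes the share of higher genes ran from 6.46% on chromosome I to 11.2% on chromosome V, and that of lower genes from 5.4% on chromosome III to 10.1% on chromosome V. Chromosome X had 10.6% higher and 7.27% lower. Among higher genes 102 (12.8%) sat in runs of adjacent 2-fold genes of the same direction, and among lower genes 125 (17.9%). With 8.8% of all compared genes higher and 7.73% lower, some 2-fold genes adjoin each other in any order. Whether the runs exceeded that level was not tested. Families of related neighbours share sequence and some share probe sets. The longest higher run held fbxa-59, fbxa-60, fbxa-67 and fbxa-11 on chromosome III (1.01 to 2.32). The longest lower run held pqn-63, idpc-7, idpc-6 and idpc-5 on chromosome V (−3.59 to −1.32).

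**Figure D4:**
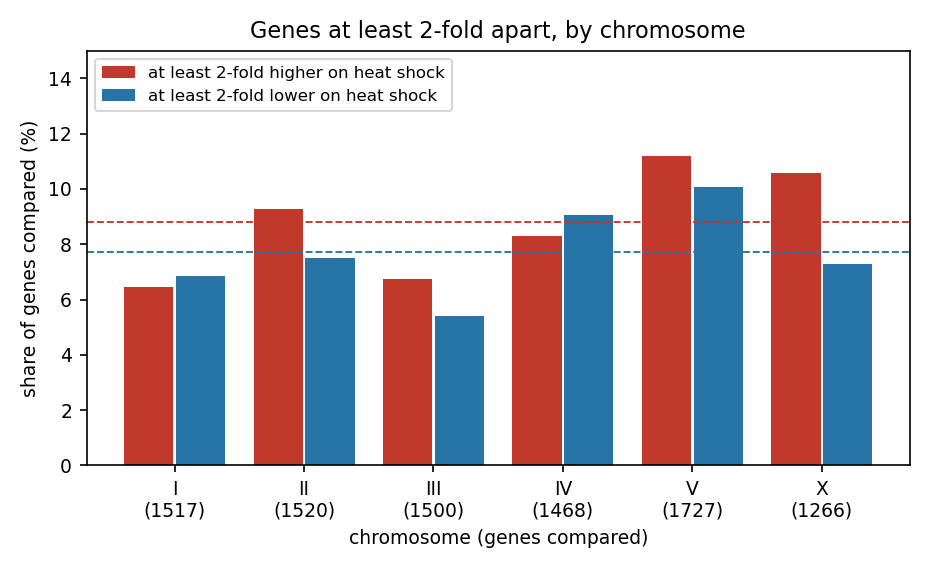
Share of compared genes (percent) on each chromosome that were at least 2-fold higher (red, left bar) or lower (blue, right bar) on heat shock than on bio-electrospray, with the number compared in brackets and dashed lines at the 8.8% and 7.73% of all genes. Chromosome V had the highest shares, 11.2% and 10.1%.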

How the data were processed

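Each array was hybridized with amplified, biotin-labelled RNA of whole larvae. The deposited values are log2 levels per probe set made by the authors with GCRMA, per the submitters' processing notes; its version and options are not given in the sources used here. GCRMA as usually run corrects background by probe sequence and normalizes by quantiles, which can remove a shift shared by all transcripts. Scanner files were not used here, and 0 value columns belonged to no sample. Levels were subtracted between the heat shock and bio-electrospray arrays, and differences of at least 1 (2-fold) were counted among probe sets above the median on at least 1 of the 2.

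Genes were named from the platform annotation: 20766 probe sets had 1 symbol, 887 several and 972 none, and 20701 single-symbol probe sets were matched to the RefSeq gene table. Members and the 75 gene lists were chosen with earlier results of these data known. A rule marked genes for naming. It took the 15 highest and 15 lowest, and the 8 furthest above and the 8 furthest below both other arrays on bio-electrospray. It also took all members of the heat shock protein and propionate lists and up to 6 of each other list by size of difference. Not all genes marked by the rule are printed, among them some of the 15 lowest and of the 8 furthest below. Those printed were picked with their values known. Further names (markers, probe sets of several genes, runs and the few members of a list opposite to the rest) were chosen after their values were seen. The counting was tested on simulated data. Alternatives were quantile, median, spike-in and loess centring, other filters and thresholds, an offset, probe sets not shared between transcripts and the mean over probe sets. Promoter motifs and sequences were not analysed here. Python 3.11.15 was used with numpy 2.4.6, pandas 2.3.3, scipy 1.17.1, statsmodels 0.14.6 and matplotlib 3.10.9.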

Additional observations from a re-analysis of the deposited data

How the results depend on the processing

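With 1 array a treatment there is no replicate spread, and these alternatives show only how the same arrays read under other choices. No paired analysis was possible because each group has 1 array. Counts of probe sets at least 2-fold higher and lower were 1027 and 870, and those of genes 794 and 698. They stayed within 1.5 times under quantile, median and loess centring and under all 3 other level filters, and the gene counts also with the mean over probe sets or the brightest over the 2 arrays. With spike-in centring they were 1993 and 547 probe sets, and 1518 and 438 genes. With an offset of 16 on the linear scale they were 479 and 487 probe sets, and 366 and 384 genes. Without probe sets shared between transcripts they were 679 and 471 probe sets, and 443 genes were lower. A 3-fold threshold left 389 and 419 probe sets, and one of 1.5-fold gave 2175 and 1592. Of 302 genes marked for naming by the rule above and 2-fold apart, 266 stayed so under spike-in centring and 208 with the offset. Without shared probe sets 197 of the 207 measured stayed so. The basement membrane gene fbl-1 reversed there, at 1.41 against −1.92, and the F-box median was −0.043 without the level filter, since most F-box genes are dim. Smaller positive medians turned negative there too, at −0.02 for skr and cul, −0.05 for MATH and BATH and −0.01 for nuclear hormone receptor genes. The promoter motif description was not run.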

Other observations

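A small set of genes was higher on both treated arrays than on control while the treated arrays stayed within 2-fold of each other; the 2 treated arrays are both read against 1 control array, and these genes were picked after their values were seen. The uncharacterised gene Y58A7A.5 stood at 5.42 on heat shock, 5.53 on bio-electrospray and 2.93 on control. Its neighbour in name Y58A7A.3 stood at 6.90 on heat shock, 7.16 on bio-electrospray and 4.95 on control. The C-type lectin gene clec-47 stood at 5.86 on heat shock, 5.24 on bio-electrospray and 2.99 on control, and C49G7.10 at 6.54 on heat shock, 6.4 on bio-electrospray and 4.92 on control. In the opposite sense the stearoyl-CoA desaturase gene fat-7 stood at 2.74 on heat shock, 3.16 on bio-electrospray and 4.50 on control, unlike fat-6, whose level was highest on heat shock. The arginine kinase gene argk-1, which buffers cell energy, stood at 3.89 on heat shock, 5.87 on bio-electrospray and 7.18 on control, so bio-electrospray lay between the other arrays.

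Among compared genes outside the gene groups described above, methionine metabolism gave one wide value, the cystathionine gamma-lyase gene cth-1 at 3.82 on heat shock, 6.62 on bio-electrospray and 7.37 on control (−2.80). The trehalose synthesis gene tps-1, which makes a protective sugar, stood at 8.16 on heat shock, 6.61 on bio-electrospray and 6.59 on control (1.55), and the glycerol synthesis gene gpdh-1, known for induction by salt, at 2.80 on heat shock, 4.76 on bio-electrospray and 4.73 on control (−1.96). The cell death activator gene egl-1 stood at 3.61 on heat shock, 2.19 on bio-electrospray and 2.17 on control (1.42), the only one of 26 DNA damage response genes 2-fold apart. Its bio-electrospray level lay below the array median of 3.16, so this fold depends on the background model. The coelomocyte marker cup-4, of cells that scavenge the body cavity, stood at 5.31 on heat shock, 3.67 on bio-electrospray and 3.66 on control (1.64). Of 39 lipid-binding and transthyretin-related genes 7 were higher and 2 lower (median 0.21), and the widest on either side were ttr-23 at 3.10 and ttr-44 at −3.01.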
